A study of Mus musculus with 16 samples.

Results

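The tricarboxylic acid (TCA) cycle enzymes examined here were the cytosolic isocitrate dehydrogenase Idh1, the mitochondrial isocitrate dehydrogenases Idh2, Idh3a and Idh3b, the malate dehydrogenase Mdh2, citrate synthase Cs, the oxoglutarate dehydrogenase Ogdh, fumarase Fh1 and the pyruvate dehydrogenase subunit Pdha1. They were chosen by gene symbol, from the array's annotation, among the probes that were detected above background (detection p-value under 0.05) on every array of at least 1 diet group. All 9 genes qualified, each with 1 probe, out of 7816 named genes on 11143 detected probes and 25697 probes on the array, and each of the 9 probes was detected on all 16 arrays. Of the 9, Cs and Fh1 are a synthase and a hydratase and the others belong to dehydrogenases. Livers came from 13 male C57BL/6 mice, purchased at 104 weeks of age and kept on the AIN-93G diet for a month before the experiment. In the EOW group (5 mice) that diet held 1% metformin every other week, in the 2WM group (4 mice) for 2 consecutive weeks of each month, and in the standard diet group (SD, 4 mice) at no time. Treatment lasted 17 weeks, the mice were not fasted at sacrifice, and all groups had the same base diet and no engineered allele. The labels hold an EOW mouse more than the study's description of the arrays, which does not name the one left out, and all 5 were used here. Replicate 1 in every diet group was measured with a pair of arrays, whose values were averaged into 1 mouse.

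Metformin is a biguanide that lowers glucose output by the liver and acts in part on mitochondrial respiration. The TCA cycle oxidises acetyl groups in the mitochondrial matrix and feeds electrons to the respiratory chain. Pyruvate dehydrogenase supplies the acetyl groups, citrate synthase joins them to oxaloacetate, and isocitrate dehydrogenase, oxoglutarate dehydrogenase, fumarase and malate dehydrogenase carry the carbon round again. Several of these steps also have a cytosolic counterpart. In liver, cytosolic Idh1 makes NADPH for fatty acid and sterol synthesis, Idh2 makes NADPH inside mitochondria, and the Idh3 complex is the NAD-dependent enzyme of the cycle itself.

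The level of a probe is given below in log2 units relative to the mean of all probes on its array, after each array was brought to the same spread, and ± gives the standard deviation over mice. Levels of different probes cannot be ranked against each other. Median signal per array was 127.2 to 184.9, and 11457 to 12953 probes per array were detected. Repeat arrays of 1 mouse differed by a median of 0.0915 log2 units over the 27 pairs of member values, and at most by 0.457 (Idh3a). The liver of EOW mouse 4 stood apart, with correlations of 0.841 to 0.888 with the other livers across the detected probes, against 0.950 to 0.991 between pairs of the other 12. Marker levels were summed on the linear scale and the sum is given in log2 units, so that the brightest markers weigh most. In that liver the summed level of the detected T and NK cell markers (3 of 7 on the array) was 4.97. It was 1.01 to 1.59 in the other EOW mice, 1.39 to 1.60 in 2WM mice and 0.99 to 1.51 in SD mice. The probes for Cd8a, Cd4, Nkg7 and Gzma did not pass the detection filter. That filter asks for every array of a diet group and cannot show whether these genes were absent from 1 liver. Of 9 hepatocyte markers on the array 7 were detected, with a summed level of 8.49 to 9.33 in EOW, 8.68 to 9.05 in 2WM and 8.43 to 8.90 in SD mice, and the probes for Alb and Tat did not pass. The detected stellate cell markers (6 of 7 on the array, without Col1a1) were also highest in EOW mouse 4, with a summed level of 6.73, and ranged over 5.94 to 6.30 in the other EOW mice, 5.88 to 6.13 in 2WM mice and 5.38 to 5.99 in SD mice. The part of these markers in the results was not tested.

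The 9 genes differed little between the diets, and not all in 1 direction. Idh2 was higher in both metformin groups than in SD (log2 fold changes of 0.64 and 0.59) and Mdh2 was higher in EOW (0.57), whereas Idh1 and Cs were lower in EOW than in 2WM, and the Idh3 subunits, Ogdh, Fh1 and Pdha1 lay within the spread between mice. None of these differences passed the adjusted test. After Benjamini-Hochberg adjustment of limma's p over the 11143 probes, 0 of 9 members were under 0.05 in any of the 3 comparisons, and so was 0% of all probes in each. At an unadjusted p under 0.05, EOW against SD gave 2 members higher (Idh2 and Mdh2), where 5.59% of all probes were higher, and 0 lower, where 8.25% were. 2WM against SD gave 1 member higher (Idh2; background 2.23%) and 0 lower (3.71%). EOW against 2WM gave 1 higher (Mdh2; 5.26%) and 2 lower (Idh1 and Cs; 5.4%). At the looser limit of an adjusted p under 0.30, EOW against SD gave 2 members (Idh2 and Mdh2), where 8.74% of all probes passed, 2WM against SD gave 0 (0.0449%) and EOW against 2WM 0 (2.42%). Groups did not overlap for 1 member higher (1.75% of all probes) and 0 lower (2.4%) in EOW against SD, for 1 higher (2.16%) and 0 lower (3.66%) in 2WM against SD, and for 0 higher (1.99%) and 0 lower (1.97%) in EOW against 2WM. The genes with an unadjusted p under 0.05 were the same when EOW mouse 4 was left out. When arrays were centred on the median of all probes instead, the median probe itself shifted to −0.0883 in EOW and −0.12 in 2WM against SD, and the members under 0.05 were then Idh1, Idh2 and Mdh2 in EOW against SD, none in 2WM against SD and Mdh2 in EOW against 2WM. With that centring, EOW against SD had 2.59% of all probes higher and 14.5% lower, 2WM against SD had 0.835% higher and 11.4% lower, and EOW against 2WM had 6.14% higher and 3.28% lower. The groups then overlapped for Mdh2 in EOW against SD and for Idh2 in 2WM against SD, the members without overlap before.

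**Figure D1:**
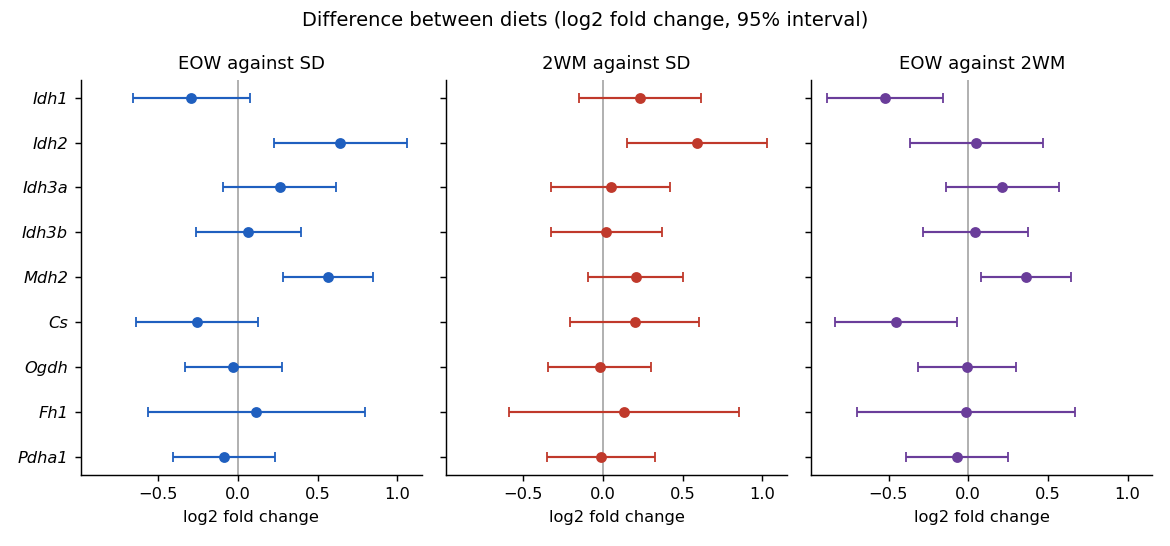
Log2 fold change (x axis) of the 9 TCA-cycle genes in EOW against SD, 2WM against SD and EOW against 2WM, with 95% intervals from the limma fit over 13 mice. The interval lies above 0 for Idh2 and Mdh2 in EOW against SD, for Idh2 in 2WM against SD and for Mdh2 in EOW against 2WM, and below 0 for Idh1 and Cs in EOW against 2WM.

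Idh2 (chromosome 7, probe ILMN_2595612) encodes the mitochondrial enzyme that oxidises isocitrate with NADP. Its level was 4.11, 3.58, 3.97, 3.18 and 3.93 in EOW mice 1 to 5, 3.55, 3.92, 3.88 and 3.46 in 2WM mice 1 to 4, and 3.27, 2.96, 2.80 and 3.41 in SD mice 1 to 4. All 4 2WM livers and 4 of 5 EOW livers were above every SD liver, and EOW mouse 4 alone fell among the SD values. With median centring 2WM mice 1 and 4 fell among the SD values as well. The mean was 3.75 ± 0.38 in 5 EOW mice, 3.70 ± 0.23 in 4 2WM mice and 3.11 ± 0.28 in 4 SD mice. The log2 fold change was 0.64 in EOW against SD (standard error 0.19, 95% interval 0.23 to 1.06, 1.56-fold), with an adjusted p of 0.215 by limma and an exact two-sided permutation p of 0.0397. It was 0.59 in 2WM against SD (standard error 0.20, 95% interval 0.15 to 1.03, 1.51-fold), with an adjusted p of 0.708 by limma and an exact permutation p of 0.0286, the smallest that 4 mice against 4 can give. Between EOW and 2WM the difference was 0.05 (95% interval −0.36 to 0.47). In whole-liver RNA, fewer cells of a type and less RNA per cell cannot be told apart. Without EOW mouse 4, EOW exceeded SD by 0.79 (adjusted p = 0.119 by limma). With median centring the log2 fold change of Idh2 was 0.48 in EOW and 0.38 in 2WM against SD.

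Idh1 (chromosome 1, probe ILMN_2729458), the cytosolic and peroxisomal NADP enzyme, had another pattern. Levels were 3.86, 4.60, 4.75, 3.97 and 4.36 in EOW mice 1 to 5, 4.74, 4.65, 4.99 and 4.94 in 2WM mice 1 to 4, and 4.55, 4.53, 4.76 and 4.56 in SD mice 1 to 4. The EOW livers were widely spread, with mice 1, 4 and 5 below every SD and every 2WM liver, whereas the 2WM and SD livers were close together. EOW averaged 4.31 ± 0.39 (n = 5), 2WM 4.83 ± 0.16 (n = 4) and SD 4.60 ± 0.11 (n = 4). Against 2WM, the log2 fold change of Idh1 in EOW was −0.52 (standard error 0.17, 95% interval −0.89 to −0.16, 4 of 5 livers below all 2WM livers), with an adjusted p of 0.312 by limma and an exact permutation p of 0.0556. Against SD the log2 fold change was −0.29 in EOW (adjusted p = 0.453 by limma; −0.18 without EOW mouse 1, −0.12 with array weights and −0.50 with median centring) and 0.23 in 2WM (adjusted p = 0.913 by limma), and the sign in 2WM turned to −0.05 when arrays were centred on their medians.

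The NAD-dependent complex was read through Idh3a (chromosome 9, probe ILMN_2740134), its catalytic subunit, and Idh3b (chromosome 2, probe ILMN_1235050), a second subunit. Idh3a ranged over 0.34 to 1.19 in EOW, 0.36 to 0.63 in 2WM and 0.25 to 0.55 in SD mice. EOW mice 4 (0.94) and 5 (1.19) were above every other liver, and the remaining 3 EOW mice lay among the other groups. The log2 fold change of Idh3a was 0.26 in EOW against SD (95% interval −0.09 to 0.62, 0.13 without EOW mouse 5) and 0.05 in 2WM against SD (95% interval −0.33 to 0.42, −0.02 with median centring). Idh3b ranged over 3.48 to 4.14 in EOW, 3.74 to 3.94 in 2WM and 3.49 to 4.19 in SD mice, so that the SD range took in all 2WM livers and 4 of 5 EOW livers. Its log2 fold change was 0.07 in EOW against SD (95% interval −0.26 to 0.39, −0.12 with median centring). In 2WM against SD it was 0.02 (95% interval −0.33 to 0.37), and its sign turned under neqc, quantile normalization and median centring (−0.0059, −0.0068 and −0.22).

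To set the cytosolic against the mitochondrial isocitrate dehydrogenases within each liver, the level of Idh2, Idh3a or Idh3b was subtracted from that of Idh1. The size of such a difference depends on the probes, and only its change between diets can be read. Idh1 minus Idh2 was −0.25, 1.02, 0.78, 0.79 and 0.43 in EOW mice 1 to 5, 1.19, 0.73, 1.11 and 1.48 in 2WM mice 1 to 4, and 1.27, 1.57, 1.96 and 1.15 in SD mice 1 to 4. All 5 EOW livers lay below all 4 SD livers. The mean was 0.56 ± 0.50 in 5 EOW mice, 1.13 ± 0.31 in 4 2WM mice and 1.49 ± 0.36 in 4 SD mice. EOW differed from SD by −0.93 (exact two-sided permutation p = 0.0159, 0.143 after adjustment over 9 comparisons), against a smallest possible exact p of 0.00794 with 5 mice against 4. 2WM differed from SD by −0.36 (exact p = 0.171, adjusted 0.257), and EOW from 2WM by −0.57 (exact p = 0.0635, adjusted 0.161). These became −0.20 without SD mouse 3 and −0.37 without EOW mouse 1. In EOW this difference combined a higher mean of Idh2 with a lower mean of Idh1 than in SD, while in 2WM both means were above SD, apart from Idh1 with median centring.

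Against the Idh3 subunits the separation of EOW from SD was smaller. Idh1 minus Idh3a was 3.63 ± 0.60 in 5 EOW mice, 4.37 ± 0.13 in 4 2WM mice and 4.19 ± 0.24 in 4 SD mice. EOW differed from SD by −0.55 (exact permutation p = 0.151) and from 2WM by −0.74 (exact p = 0.0714). 2WM differed from SD by 0.18 (exact permutation p = 0.2), and by −0.03 with median centring. Idh1 minus Idh3b was 0.45 ± 0.48 in 5 EOW mice, 1.01 ± 0.13 in 4 2WM mice and 0.80 ± 0.31 in 4 SD mice, with 4 of 5 EOW livers below all 2WM livers. EOW differed from SD by −0.36 (exact permutation p = 0.238) and from 2WM by −0.57 (exact p = 0.0556), and 2WM differed from SD by 0.21 (exact p = 0.314). Idh1 minus Idh3b differed by −0.17 between EOW and SD without EOW mouse 1, and by 0.07 between 2WM and SD without SD mouse 4. None of the 9 comparisons passed 0.05 after adjustment.

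**Figure D2:**
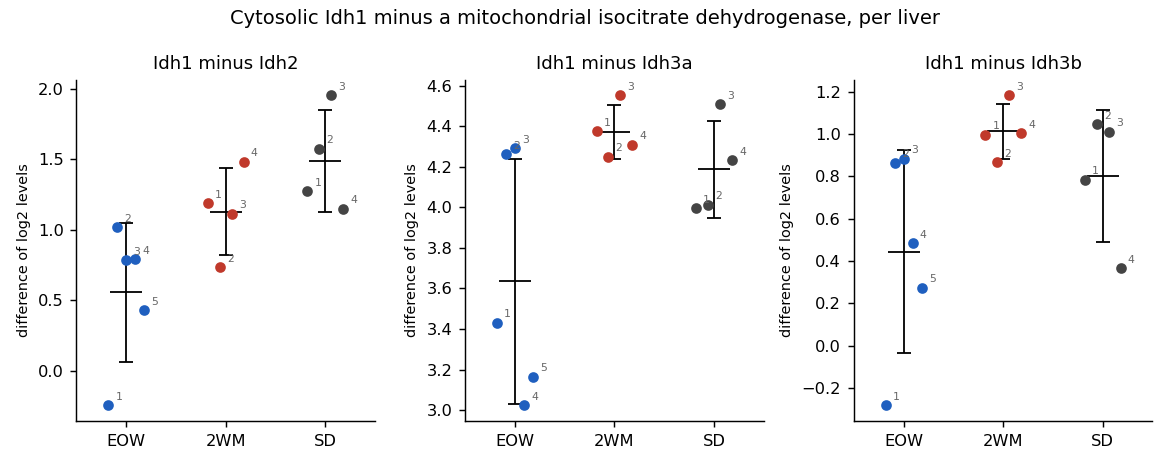
Level of Idh1 minus that of Idh2, Idh3a or Idh3b in each liver (y axis, log2 units), by diet, with the mouse number beside each point and bars at the mean ± 1 standard deviation. For Idh2 all 5 EOW livers (−0.25 to 1.02) lie below the 4 SD livers (1.15 to 1.96), and the 2WM livers (0.73 to 1.48) overlap both groups.

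Mdh2 (chromosome 5, probe ILMN_2873112), the malate dehydrogenase that regenerates oxaloacetate in the matrix, had the smallest p of the 9 genes. Its level was 2.46, 2.12, 2.56, 2.32 and 2.72 in EOW mice 1 to 5, 1.89, 1.97, 2.30 and 2.14 in 2WM mice 1 to 4, and 1.83, 1.67, 2.06 and 1.91 in SD mice 1 to 4. Every EOW liver was above every SD liver, and the 2WM livers lay between and overlapped both. With median centring EOW mouse 2 fell below SD mouse 3, and the log2 fold change in EOW against SD was 0.46. EOW averaged 2.44 ± 0.23 (n = 5), 2WM 2.07 ± 0.18 (n = 4) and SD 1.87 ± 0.16 (n = 4). The log2 fold change in EOW against SD was 0.57 (standard error 0.13, 95% interval 0.28 to 0.85, 1.48-fold), with an adjusted p of 0.153 by limma and an exact permutation p of 0.0159, and its p ranked 61 among the 11143 probes. Against 2WM, EOW was higher by 0.36 (95% interval 0.08 to 0.64, adjusted p = 0.364 by limma, exact p = 0.0476), and 4 of 5 EOW livers were above all 2WM livers. 2WM against SD gave 0.21 (95% interval −0.09 to 0.50, adjusted p = 0.9 by limma).

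Cs (chromosome 10, probe ILMN_1241236), which opens the cycle by condensing acetyl-CoA with oxaloacetate, had levels of 1.50, 2.49, 2.42, 2.43 and 1.96 in EOW mice 1 to 5, 2.48, 2.62, 2.69 and 2.67 in 2WM mice 1 to 4, and 2.39, 2.47, 2.28 and 2.52 in SD mice 1 to 4. EOW mice 1 and 5 were well below the other 11 livers, and the other 3 EOW livers lay within the range of SD. The means were 2.16 ± 0.43 in 5 EOW mice, 2.61 ± 0.10 in 4 2WM mice and 2.41 ± 0.11 in 4 SD mice. EOW against 2WM gave a log2 fold change of −0.45 (standard error 0.18, 95% interval −0.83 to −0.07), with an adjusted p of 0.391 by limma and an exact permutation p of 0.0635. Without EOW mouse 1 it was −0.29. EOW against SD gave −0.25 (adjusted p = 0.53 by limma), and −0.09 without EOW mouse 1.

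The remaining enzymes did not separate the diets. Ogdh (chromosome 11, probe ILMN_2639805), the E1 component of the oxoglutarate dehydrogenase complex, ranged over 1.33 to 2.15 in EOW, 1.69 to 1.89 in 2WM and 1.63 to 2.02 in SD mice. Fh1 (chromosome 1, probe ILMN_2780489), the fumarase that hydrates fumarate to malate, ranged over 3.22 to 5.18 in EOW, 3.42 to 4.31 in 2WM and 3.68 to 4.10 in SD mice. Pdha1 (chromosome X, probe ILMN_2679851), the E1 alpha subunit of pyruvate dehydrogenase that is switched off by phosphorylation, ranged over 3.20 to 3.83 in EOW, 3.32 to 3.72 in 2WM and 3.26 to 3.79 in SD mice. In all 3 genes the EOW range extended beyond those of 2WM and SD at both ends. In EOW against SD the log2 fold changes were −0.03 for Ogdh (95% interval −0.33 to 0.28), 0.12 for Fh1 (−0.57 to 0.80) and −0.09 for Pdha1 (−0.41 to 0.24). The sign of Fh1 turned with median centring (−0.07), and its interval was the widest of the 9 genes.

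**Figure D3:**
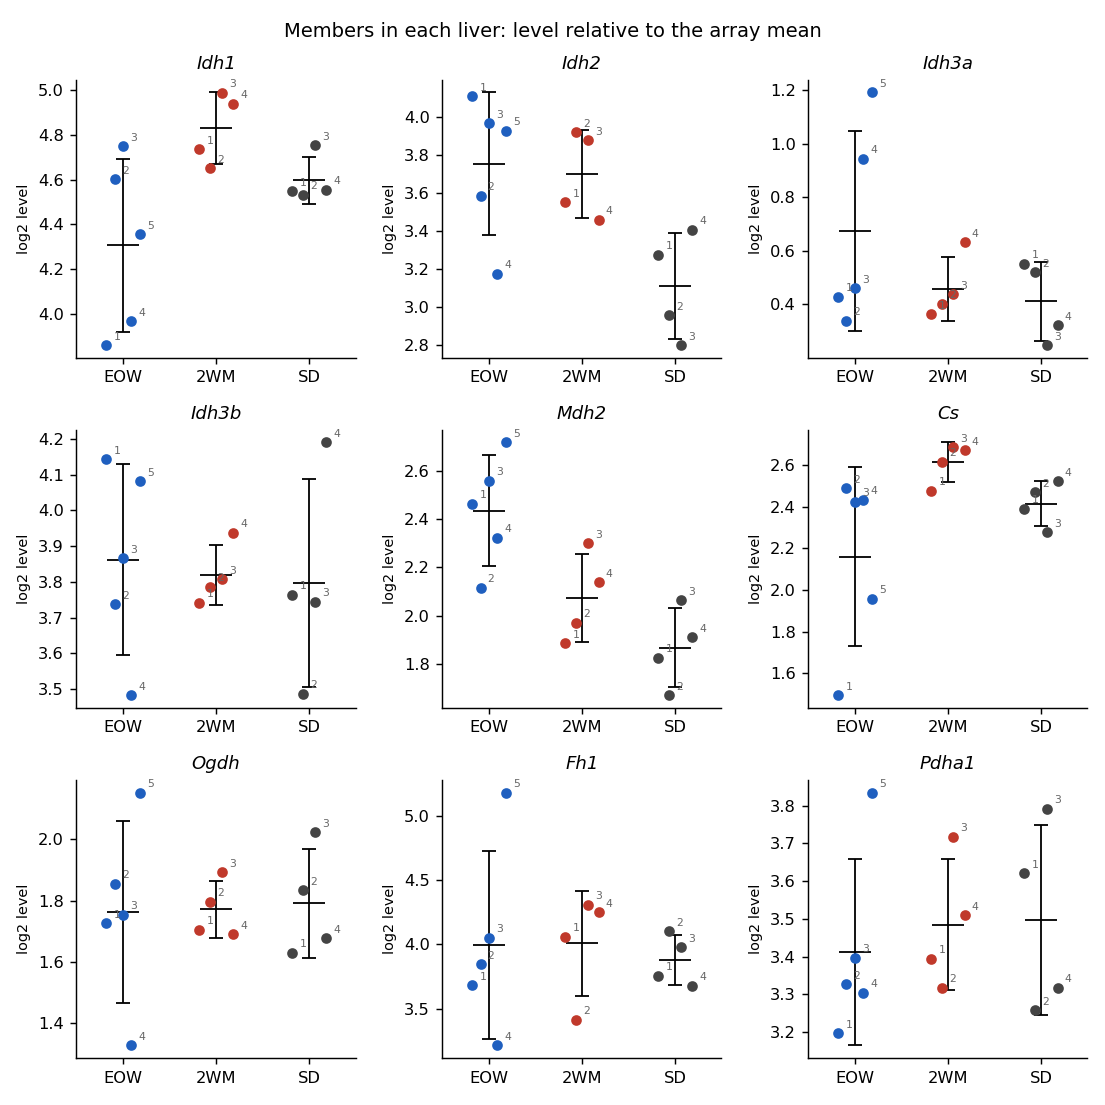
Level of each of the 9 genes in every liver (y axis, log2 units relative to the array mean, scaled per gene), by diet, with the mouse number beside each point and bars at the mean ± 1 standard deviation. At this scaling all 5 EOW livers lie above the 4 SD livers for Mdh2 and all 4 2WM livers above them for Idh2.

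Spread between mice was itself uneven. The standard deviation was larger in EOW than in 2WM for 9 of 9 genes and larger in EOW than in SD for 7 of 9. It ranged over 0.23 to 0.73 in EOW, 0.08 to 0.41 in 2WM and 0.11 to 0.29 in SD mice. The share of all probes with a wider spread in EOW was not counted, and EOW includes mouse 4, which stood apart across the detected probes. EOW mouse 5 had the highest of the 13 levels for 5 genes (Idh3a, Mdh2, Ogdh, Fh1 and Pdha1). EOW mouse 1 had the lowest level for 3 (Idh1, Cs and Pdha1) and the highest for Idh2, and EOW mouse 4 had the lowest for 3 (Idh3b, Ogdh and Fh1). Across the 13 livers, which share their groups and the scaling of their arrays, Pearson's r was 0.729 between Idh1 and Cs. It was 0.896 over the 12 livers without EOW mouse 4, and 0.543 over 13 after subtracting the group means. Between Idh2 and Mdh2 r was 0.624 (0.703 over 12, and 0.341 over 13 after that subtraction). Between Ogdh and Fh1 it was 0.75 (0.667 over 12, and 0.764 over 13 after that subtraction). These pairs are among those with the highest r of all member pairs. Idh1 and Idh2 had r = −0.0922 over 13 livers and −0.287 over 12. These coefficients describe the livers and were not tested.

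Idh1 with Cs and Idh2 with Mdh2, the 4 members with an unadjusted p under 0.05 in some comparison, are shown with the 250 bases before their transcription start, so that the letters of their promoters can be compared. Sequences and coordinates are those of RefSeq on GRCm38.p6, read 5′ to 3′ on the strand of the gene, with the start farthest upstream for Idh1, which has 2. Capitals mark motifs found on either strand, none of which overlap. These are the GC box with the letters GGGCGG, the box named CCAAT after its letters, and the cyclic AMP response element, which has the letters TGACGTCA.
Idh1, chr1:65186480-65186729, minus strand: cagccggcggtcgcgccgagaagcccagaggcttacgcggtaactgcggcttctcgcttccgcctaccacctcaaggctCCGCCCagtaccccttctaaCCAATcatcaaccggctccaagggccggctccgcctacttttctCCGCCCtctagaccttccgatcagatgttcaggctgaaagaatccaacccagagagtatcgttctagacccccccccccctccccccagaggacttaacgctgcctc
Cs, chr10:128337477-128337726, plus strand: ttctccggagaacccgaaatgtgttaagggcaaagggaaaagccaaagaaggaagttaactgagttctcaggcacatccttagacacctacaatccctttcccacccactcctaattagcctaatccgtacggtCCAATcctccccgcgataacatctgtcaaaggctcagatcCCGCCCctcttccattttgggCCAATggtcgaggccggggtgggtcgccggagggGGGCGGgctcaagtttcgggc
Idh2, chr7:80115351-80115600, minus strand: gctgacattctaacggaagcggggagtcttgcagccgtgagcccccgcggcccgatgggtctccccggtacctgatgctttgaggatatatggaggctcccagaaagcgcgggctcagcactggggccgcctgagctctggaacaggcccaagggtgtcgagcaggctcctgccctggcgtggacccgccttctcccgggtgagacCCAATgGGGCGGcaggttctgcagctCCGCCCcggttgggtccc
Mdh2, chr5:135778399-135778648, plus strand: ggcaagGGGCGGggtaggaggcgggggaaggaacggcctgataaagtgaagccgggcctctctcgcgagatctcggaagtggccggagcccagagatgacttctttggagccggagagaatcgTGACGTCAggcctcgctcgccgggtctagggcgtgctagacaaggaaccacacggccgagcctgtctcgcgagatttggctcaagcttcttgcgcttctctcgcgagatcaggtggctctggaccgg

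These motifs were chosen after the sequences and the levels had been seen. Idh1, Cs and Idh2 each held 2 GC boxes and at least 1 CCAAT box in this window, and Mdh2 held 1 GC box and no CCAAT box. A GC box occurs in 32.7% and a CCAAT box in 33.8% of all 32851 windows of this length in the table. A cyclic AMP response element, which 1.55% of windows hold, was in 2 of the 8 matched members. It lay 127 bases before the start of Mdh2 and 51 bases before that of Ogdh, read only at the farthest upstream of its 6 starts. The letters AAGGTCA, bound by the estrogen-related receptors, orphan nuclear receptors known for driving mitochondrial genes, were searched on both strands as well. They are held by 4.08% of windows and were in none of the windows of those members. Idh3a was not matched. A match is a description of the letters and was not tied to any level.

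Genes around the 9 were read from 4 lists covering the partners and regulators of pyruvate dehydrogenase, the other subunits of the cycle, its cytosolic counterparts with the NADPH sources, and anaplerosis with metabolite exchange. Of 41 listed genes 34 were on the array and 27 were detected. After adjustment limma called 0 of 27 in each comparison. At an unadjusted p under 0.05, EOW against SD gave 0 higher and 1 lower (5.59% and 8.25% of all probes), 2WM against SD 3 higher and 0 lower (2.23% and 3.71%), and EOW against 2WM 0 higher and 5 lower (5.26% and 5.4%). With median centring EOW against SD gave 0 higher and 5 lower (Suclg1, Suclg2, Aco1, Glud1 and Slc25a10), beside 2.59% and 14.5% of all probes. 2WM against SD then gave 2 higher (Pdk4 and Mdh1) and 1 lower (Suclg1), beside 0.835% and 11.4%. EOW against 2WM then gave 0 higher and 4 lower (Pdk4, Mdh1, Me1 and Acly), beside 6.14% and 3.28%. Leaving out EOW mouse 4 added 2 higher in EOW against SD (Idh3g and Got1), beside 5.64% of all probes. The other counts stayed as they were. The median log2 fold change of the 27 was −0.04, 0.07 and −0.12 in these comparisons, against −0.03, −0.03 and 0.0029 over all probes.

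With arrays scaled to Z scores, the list of cytosolic counterparts and NADPH sources gave most of the listed genes with an unadjusted p under 0.05. With median centring it gave only Aco1 in EOW against SD and only Mdh1 in 2WM against SD. The list held 4 detected genes. At the Z scores all 4 had a lower mean in EOW than in 2WM with an unadjusted p under 0.05, where 5.4% of all probes did. Mdh1, the cytosolic malate dehydrogenase, had levels of 2.27, 2.03, 1.90, 1.75 and 2.21 in EOW mice 1 to 5, 2.37, 2.20, 2.75 and 2.50 in 2WM mice 1 to 4, and 1.96, 1.98, 1.94 and 2.12 in SD mice 1 to 4. All 2WM livers were above all SD livers, as for 2.16% of all probes, and the EOW livers fell on both sides of SD. The log2 fold change of Mdh1 was 0.45 in 2WM against SD (standard error 0.14, adjusted p = 0.623 by limma) and −0.42 in EOW against 2WM (standard error 0.13, adjusted p = 0.284 by limma), so that Mdh1 and its mitochondrial counterpart Mdh2 differed between EOW and 2WM with opposite signs.

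Aco1, the cytosolic aconitase that also serves as an iron regulatory protein, had levels of 1.14, 0.99, 0.98, 1.15 and 1.13 in EOW mice 1 to 5, 1.30, 1.17, 1.44 and 1.46 in 2WM mice 1 to 4, and 1.34, 1.37, 1.84 and 1.23 in SD mice 1 to 4. Every EOW liver was below every liver of both other groups, as for 2.4% of all probes against SD and 1.97% against 2WM. The nearest levels were 1.15 in EOW mouse 4 and 1.17 in 2WM mouse 2. The log2 fold change of Aco1 was −0.37 in EOW against SD (standard error 0.12, adjusted p = 0.234 by limma) and −0.26 in EOW against 2WM (adjusted p = 0.455 by limma). Acly, which cleaves exported citrate to acetyl-CoA for lipid synthesis, averaged 4.78 ± 0.51 in 5 EOW mice, 5.56 ± 0.31 in 4 2WM mice and 4.90 ± 0.55 in 4 SD mice. EOW against 2WM gave −0.79 for Acly (adjusted p = 0.364 by limma), with 4 of 5 EOW livers below all 2WM livers. Me1, the cytosolic malic enzyme and the remaining detected gene of the list, was named after its values were seen and had a log2 fold change of −0.80 in EOW against 2WM (adjusted p = 0.388 by limma). Leaving out EOW mouse 4, unadjusted p stayed under 0.05 for all 4 genes in EOW against 2WM (0.0123 to 0.0419), and with median centring Aco1 had a p of 0.0771.

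**Figure D4:**
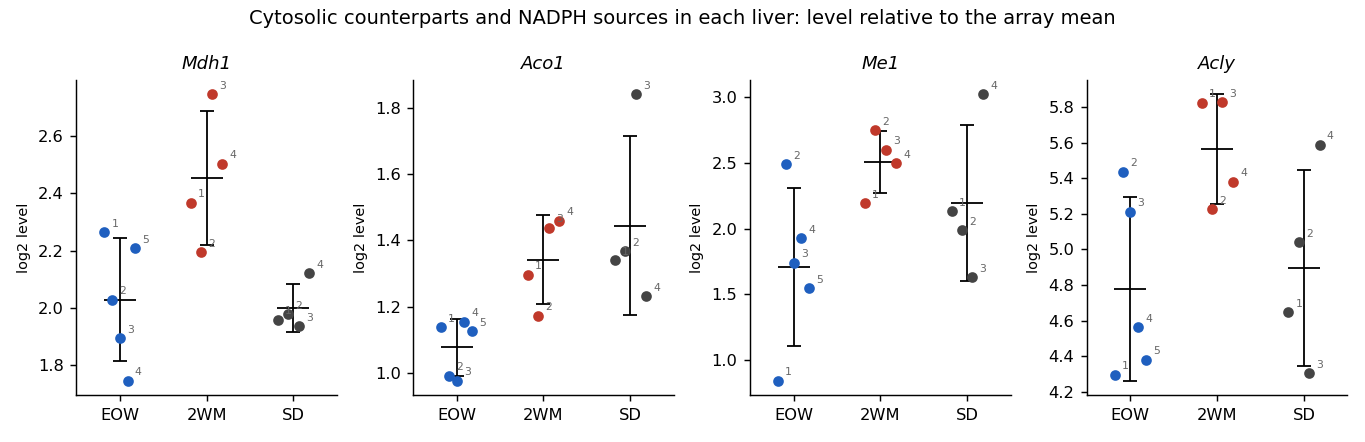
Level of Mdh1, Aco1, Me1 and Acly in every liver (y axis, log2 units relative to the array mean, scaled per gene), by diet, with the mouse number beside each point and bars at the mean ± 1 standard deviation. All 5 EOW livers lie below the 4 2WM livers for Aco1, and the means of all 4 genes are lower in EOW than in 2WM.

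Of the genes around pyruvate dehydrogenase, Pdk4, a kinase that inactivates the complex by phosphorylating its E1 alpha subunit, had levels of −0.31, 0.57, 0.48, 0.33 and 0.42 in EOW mice 1 to 5, 0.93, 0.96, 1.84 and 0.45 in 2WM mice 1 to 4, and 0.24, 0.26, 0.20 and −0.22 in SD mice 1 to 4. Every 2WM liver was above every SD liver, as for 2.16% of all probes, and 4 of 5 EOW livers were above them as well. The log2 fold change of Pdk4 was 0.93 in 2WM against SD (standard error 0.26, adjusted p = 0.574 by limma), 0.18 in EOW against SD (adjusted p = 0.759 by limma) and −0.75 in EOW against 2WM (adjusted p = 0.322 by limma). The phosphatase subunit Pdp2, which reverses that step, and Dld, the E3 component shared by the pyruvate and oxoglutarate complexes, had log2 fold changes of 0.29 and 0.24 in 2WM against SD (0.09 and 0.14 with median centring), both with an unadjusted p above 0.05. All 7 detected genes of this list had a lower mean in EOW than in 2WM (median −0.20), as did 49.3% of all probes, except Pdk1 with median centring (0.01). Pdhb, the E1 beta subunit, named after its values were seen, had the lowest log2 fold change of these, −0.87, which was −0.22 without EOW mouse 4.

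Other subunits of the cycle varied less. Idh3g, the third subunit of the NAD-dependent isocitrate dehydrogenase, averaged 4.16 ± 0.19 in 5 EOW mice, 4.00 ± 0.08 in 4 2WM mice and 3.93 ± 0.21 in 4 SD mice, with a log2 fold change of 0.23 in EOW against SD (adjusted p = 0.399 by limma). Suclg2, a subunit of succinyl-CoA synthetase, had −0.25, and Sdhd, a membrane anchor of succinate dehydrogenase, 0.21 in the same comparison. With median centring these values were 0.04 for Idh3g, −0.45 for Suclg2 and 0.10 for Sdhd. In the exchange list, Got1, the cytosolic aspartate aminotransferase of the malate-aspartate shuttle, averaged 2.28 ± 1.06 in 5 EOW mice, 1.98 ± 0.33 in 4 2WM mice and 1.44 ± 0.41 in 4 SD mice, and EOW mouse 5 alone reached 4.03. Slc25a10, the dicarboxylate carrier, had a log2 fold change of −0.46 in EOW against SD, and Slc25a12, an aspartate-glutamate carrier, one of 0.19 in EOW against 2WM. No gene of these 2 lists had an unadjusted p under 0.05 in any comparison over the 13 mice with arrays scaled to Z scores, and those that had one with median centring or without EOW mouse 4 are named above.

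Genes whose level across livers was most like that of Idh1 were ranked by Pearson's r over the 11143 probes. Over 13 livers the highest were Copg1 (0.938), Hsd17b12 (0.927), Mup2 (0.911), Paqr9 (0.91) and C8a (0.908), and the lowest were Eef1d (−0.937), Ift88 (−0.893) and Chchd6 (−0.892). Hsd17b12 encodes an enzyme of long-chain fatty acid elongation and Eef1d a subunit of the translation elongation factor complex. Without EOW mouse 4 the highest were Copg1 (0.943), Pnpla7 (0.935), Paqr9 (0.924), Hsd17b12 (0.912) and Cs (0.896), so that Cs was then the only member among the 5, and the lowest were Eef1d (−0.911), Eef1b2 (−0.889) and Adssl1 (−0.879). These values were chosen as extremes over many probes and were given no test.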

How the data were processed

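Liver RNA (500 ng per labelling) was hybridised to 16 Illumina BeadArrays. The authors deposited the intensity of each probe without stated normalization and the detection p-value of each probe against background beads, and the submitters' processing notes name GenomeStudio 2011.1. The authors also deposited a Z score for each probe and array, used here as an alternative. Following the study's methods, log2 signals were brought to Z scores within each array and multiplied by the arrays' mean standard deviation. Limma 3.58.1 in R 4.3.3 (lmFit and eBayes, 1 fit of 3 groups over 13 mice) tested 11143 probes, adjusted by Benjamini-Hochberg at 0.05, and the steps were tested on simulated data. Differences within a liver used exact two-sided permutation tests. Named were every member, the 3 genes of smallest p in each list, and the 5 highest and 3 lowest correlations with Idh1. Of the probes, 23978 had 1 symbol in the platform annotation, 0 several and 1719 none. Members and lists were chosen with earlier results of these data known. Limma's p sets a difference between diets against the spread between these mice, and the exact p sets it against rearrangements of the diet labels. The number of arrays limits the precision. Array background and saturation compress fold changes. The fits were repeated with median centring, quantile normalization or neqc (offset 16), with the deposited scores, without a filter or with a stricter one (detection p-value under 0.01), on the 2 groups compared alone, and with a replicate block, the first or second array of a mouse, array weights, an intensity trend, an adjusted p under 0.30 and leaving out each mouse.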

Additional observations from a re-analysis of the deposited data

Results flagged for a closer look

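One of the 27 sets of member levels within a diet group held a liver far from the others. For Idh1, SD mouse 3 had a level of 4.76, while the other 3 SD livers lay between 4.53 and 4.56, so that the gap to the nearest covered 0.898 of the group's range. Chance gives such a gap in about 1 of 20 groups.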

How the results depend on the processing

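No member passed an adjusted p of 0.05 under any alternative, and under array weights, which called 12, 41 and 4 of all probes in EOW against SD, 2WM against SD and EOW against 2WM, 0 of these were members. At an adjusted p under 0.30 members called in EOW against SD came to 2 (Idh2 and Mdh2). Idh2 and Mdh2 stayed higher in EOW than in SD under every alternative run, with adjusted p of 0.0819 to 0.539 and 0.0813 to 0.391. Signs of small differences turned, and the cause was not tested. In 2WM against SD, neqc gave −0.0059 for Idh3b and 0.0175 for Ogdh, quantile normalization −0.0068 and 0.0138, the second array of a mouse 0.0206 and array weights 0.0779 for Pdha1, and median centring −0.0542 for Idh1, −0.0226 for Idh3a, −0.2172 for Idh3b, −0.1227 for Fh1 and −0.0316 for Idh1 minus Idh3a. In EOW against SD, median centring gave −0.1212 for Idh3b and −0.0741 for Fh1. In EOW against 2WM it gave 0.0277 for Ogdh and 0.0486 for Fh1, while Ogdh was 0.0043 with the first array of a mouse and 0.0315 with array weights. Deviations of same-numbered mice from their group means had r of −0.381 to 0.328, over 0.1 in 3 of 12 pairs. Mice of different numbers were not compared in this way, so whether the numbers pair the mice is not settled. The main fits treated the mice as unpaired. The replicate block changed no call of a member. Only EOW has a mouse 5, so the block gave the members the same log2 fold changes as leaving that mouse out. In both fits the sign turned for Fh1 in EOW against SD (−0.1798) and for Idh3b in EOW against 2WM (−0.0104).

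Leaving out each mouse in turn gave ranges across 0 in 13 comparisons of single genes. In EOW against SD these were Idh3b (−0.0373 to 0.1969), Ogdh (−0.126 to 0.0801), Fh1 (−0.1798 without EOW mouse 5 to 0.3104 without EOW mouse 4) and Pdha1 (−0.1907 to 0.0132). In 2WM against SD they were Idh3a (−0.0101 to 0.095), Idh3b (−0.0816 to 0.1526), Ogdh (−0.0739 to 0.0572) and Pdha1 (−0.0921 to 0.086). In EOW against 2WM they were Idh2 (−0.0378 to 0.1953), Idh3b (−0.0258 to 0.1391), Ogdh (−0.1058 to 0.1003), Fh1 (−0.3101 to 0.1802) and Pdha1 (−0.1784 to 0.0049). Reading Idh1 and its mitochondrial counterparts by other probes was not run, because each gene has 1 probe. Counts without EOW mouse 4, and those of the surrounding genes with median centring, were added after seeing the data.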
